A study of Mus musculus with 8 samples.

Results

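Neuropeptides are signalling peptides cut from larger precursor proteins and released from dense-core vesicles beside the fast transmitters. In the forebrain their precursor messages mark populations of neurons: somatostatin, neuropeptide Y, vasoactive intestinal peptide and cortistatin are found in classes of GABAergic interneurons, cholecystokinin in interneurons and in pyramidal cells, and the PACAP precursor in excitatory neurons. Their receptors are G protein-coupled, and several of the genes are known targets of cyclic AMP signalling and the transcription factor CREB, which are studied in memory formation.

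The 9 genes described here, chosen by name, encode precursors of such peptides: Sst, Npy, Cck, Vip, Pdyn, Crh, Tac2, Adcyap1 and Cort. They are 9 of the 21643 genes of the count table. Each was represented by its table row of highest summed count. Of their 10 rows, 2 belonged to Tac2 and held identical counts.

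The study counted polyribosome-associated RNA, aimed at messages loaded for translation, in brain tissue of C57Bl6 mice aged 7 to 9 weeks. Conditioned mice had received contextual fear conditioning, in which a chamber is paired with foot shock, and control mice had been exposed to the context alone. The 8 libraries were hippocampus conditioned, hippocampus control, cortex conditioned and cortex control, each with 1 library at 1 h and 1 at 6 h. The cortex libraries are labelled frontal cortex. The tissue name comes from the labels, whose protocol and design text describe prefrontal cortex alone and 8 mice, and the number of animals per library is not stated. No combination was replicated, so that every spread is between libraries of different kinds and may be technical.

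Library totals lay between 2370973 and 5296986 counts, the lowest in the hippocampus control 6 h library. The libraries labelled hippocampus conditioned 1 h and cortex conditioned 1 h differed by little more than counting noise. The variance ratio between them, which is 1 for counting noise alone, was 1.08 over 11649 genes, and 0 genes differed at an adjusted p of 0.05, with 5.29% under an unadjusted p of 0.05. The next closest of all pairs had a ratio of 4.76. The pair was left out of the comparison of tissues and summed to 1 library, counted once in n, for time and training. The summed marker genes of hippocampal principal neurons stood at 982 to 1441 CPM (counts scaled with TMM factors to a common library total) in the hippocampus libraries outside the pair and at 360 to 429 CPM in the cortex libraries. Markers of hypothalamus, where several of these peptides are abundant, summed to at most 2.08 CPM in any library. In the hippocampus control 6 h library the kinesin gene Kif5c alone stood at 98795 CPM, against 373 to 5332 CPM in the others.

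Upstream sequences are shown first because several of these genes are known to be driven through a cyclic AMP response element. The promoter windows of RefSeq (GRCm38.p6) held 8 of the 9 members, with 2 starts each for Pdyn and Adcyap1. The full palindromic element TGACGTCA was found 48 bases before the start of Sst and in no other member's window, both strands searched. It occurred in 1.546% of 32851 promoter windows. The shorter element TGACGT, of which every full element holds a copy, occurred in 6.469% of windows and was found in Vip and Adcyap1 beside Sst. The core TGACG, contained in both, occurred in 17.77% of windows and was also found in Cck and Cort, on the opposite strand, where it reads CGTCA. Npy, Tac2 and both Pdyn windows held none of the 3, which says only that these letters are not in those windows. In the stretches below, capitals mark the element, and Sst lies on the minus strand of chr16:23890859-23890918, Vip on the plus strand of chr10:5639113-5639170, Adcyap1 on the plus strand of chr17:93198900-93198957, Cck on the minus strand of chr9:121495711-121495767 and Cort on the minus strand of chr4:149126764-149126807.
Sst: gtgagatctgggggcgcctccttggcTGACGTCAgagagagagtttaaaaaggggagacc
Vip: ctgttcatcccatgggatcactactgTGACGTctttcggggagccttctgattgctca
Adcyap1: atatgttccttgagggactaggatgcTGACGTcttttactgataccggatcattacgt
Cck: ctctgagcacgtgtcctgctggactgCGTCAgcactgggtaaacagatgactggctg
Cort: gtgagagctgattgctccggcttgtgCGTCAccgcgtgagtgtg

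Sst and Cort are shown together once more because their peptides are close relatives and read counts could be shared between near-identical stretches. Over a 36-base coding window at the end of each precursor, which encodes the core of the peptide, 30 bases were identical (83.3%). The window spans coding bases 313 to 348 in Sst and 289 to 324 in Cort, read from GENCODE transcripts of GRCm38, and capitals mark the identical bases.
Sst: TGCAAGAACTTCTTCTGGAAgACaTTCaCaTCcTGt
Cort: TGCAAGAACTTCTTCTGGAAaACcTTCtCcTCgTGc

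The longest run shared by the whole Sst and Cort transcripts was 21 bases, the longest between any members, and the next longest was 13 bases between Pdyn and Crh. No annotated gene overlapped a member. The sources used here do not say how shared or antisense reads were counted. The count of Sst was 69.5 to 694 times that of Cort in the 7 libraries where Cort had counts, and the ratio was not constant.

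The members differed widely in level. Per length of transcript, Cck and Sst led in every library: over the 7 libraries with the pair summed, the median level was 748 CPM per kb for Cck (470 to 1067) and 391 CPM per kb for Sst (256 to 554). Npy, a peptide of interneurons that often also make somatostatin, ranked below Sst and above Vip in all 7 libraries, with a median of 34.8 CPM per kb (10.1 to 95.2). Vip and the neurokinin B precursor Tac2 followed, with medians of 4.47 and 3.78 CPM per kb, and Vip was above Tac2 in 3 of 7 libraries. Cort had a median of 2.31 CPM per kb and was above Adcyap1, the PACAP precursor, at 1.41 CPM per kb, in 3 of 7 libraries. These neighbours did not keep their order. The dynorphin precursor Pdyn (0.629 CPM per kb) was above Crh, the corticotropin-releasing hormone (0.371 CPM per kb), in 6 of 7. Cck and Sst together made up 91.0% to 97.9% of the members' counts, and all 9 members held 0.0520% to 0.118% of a library's counts.

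**Figure D1:**
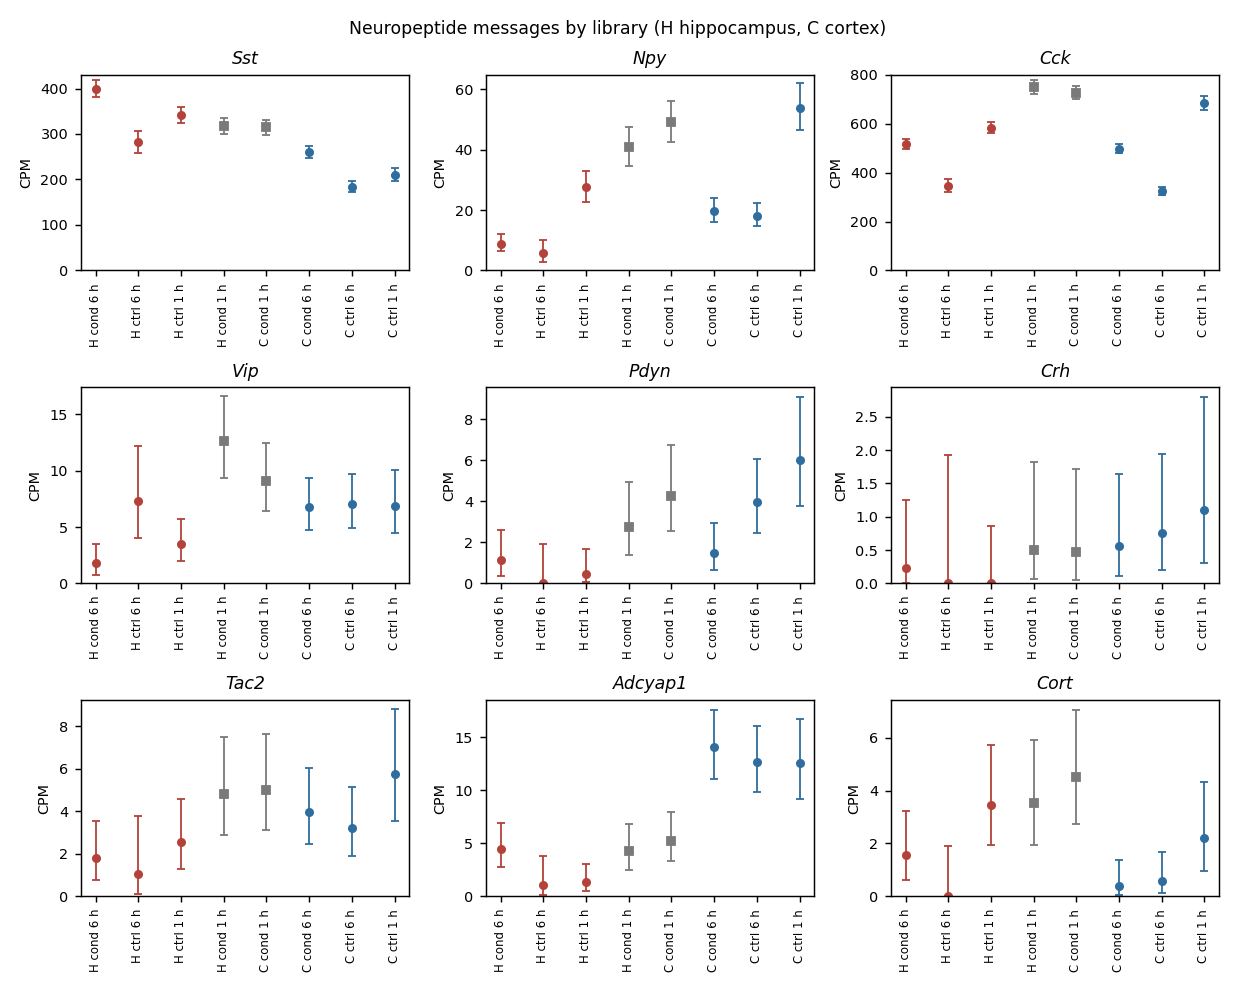
CPM values (linear axis, TMM scaling) of the 9 neuropeptide messages in each library, with 95% Poisson intervals that cover counting error only. Red circles are hippocampus (H), blue circles cortex (C), and grey squares the conditioned 1 h pair, whose intervals overlap for every member. Adcyap1 stands at 12.6 to 14.1 CPM in the blue cortex libraries and at 1.04 to 4.47 CPM in the red hippocampus libraries.

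The comparison of tissues asked where each message was more abundant. Adcyap1 was the 1 member of 7 tested that passed, lower in hippocampus, beside 3.72% of all 16123 rows tested. Sst was higher, and Pdyn and Tac2 lower, in every hippocampus library than in any cortex library, without passing the test. Crh, too scarce to test, was also lower in each, and Npy was lower in hippocampus in each of the 3 matched comparisons. The share of all genes whose groups part in this way was not counted, here or for time. At conditioned 6 h Pdyn had 5 counts in hippocampus and 8 in cortex (ratio 0.744, counting interval 0.192 to 2.58). Crh had 1 and 3 there (0.397, 0.00756 to 4.94), so both intervals included 1. Cck differed by less than its standard error.

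Adcyap1 encodes PACAP, a peptide of the vasoactive intestinal peptide family that raises cyclic AMP. It had 4.47 CPM in hippocampus conditioned 6 h, 1.04 CPM in hippocampus control 6 h and 1.39 CPM in hippocampus control 1 h, against 14.1, 12.7 and 12.6 CPM in the cortex libraries of the same kinds. All 3 hippocampus libraries were low and the groups did not overlap, with means of 2.30 ± 1.89 CPM in hippocampus and 13.1 ± 0.83 CPM in cortex (SD, n = 3 each). The log2 change was -2.52 (SE 0.49, edgeR adjusted p = 0.00311). The hippocampus value rested on 28 counts, against 188 in cortex. The call was lost without the cortex control 1 h library (adjusted p = 0.107) or without the hippocampus control 1 h library (adjusted p = 0.12). It held with correction for base composition (-2.62, adjusted p = 0.00182). Relative to Slc17a7, the vesicular glutamate transporter of excitatory neurons, Adcyap1 had 0.0084, 0.00474 and 0.00199 counts per count in the hippocampus libraries and 0.0416, 0.0321 and 0.0153 in the cortex libraries, in the same order of training and time.

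Pdyn, which gives the kappa opioid receptor ligands, and Crh, the stress hormone precursor also made in cortical interneurons, were scarce. Pdyn had 5, 0 and 2 counts in the hippocampus libraries (conditioned 6 h, control 6 h, control 1 h) and 8, 21 and 22 counts in the cortex libraries. Its log2 change was -2.40 (SE 0.78, adjusted p = 0.0977), and the ratio of the pooled counts was 0.183, with a 95% counting interval of 0.0699 to 0.404. The change passed without cortex conditioned 6 h (-4.01, adjusted p = 0.0333) and without hippocampus conditioned 6 h (-4.03, adjusted p = 0.045). It was at -1.65 (adjusted p = 0.8325) and -1.63 (adjusted p = 0.789) without the 1 h control of cortex or of hippocampus. Crh had 1, 0 and 0 counts in hippocampus and 3, 4 and 4 in cortex, a ratio of 0.121 (0.00281 to 0.833), and was below the filter on low counts. A count of 0 allows up to 1.56 CPM in the hippocampus control 6 h library.

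Npy stood at 8.94 CPM in hippocampus conditioned 6 h, 5.72 CPM in hippocampus control 6 h and 27.5 CPM in hippocampus control 1 h. In cortex it stood at 19.7, 18.2 and 53.9 CPM. The groups overlapped across times, but within each matched combination hippocampus was lower, at 0.454, 0.315 and 0.511 times the cortex value. The log2 change was -1.19 (SE 0.37, adjusted p = 0.0768), and it passed with the pair summed at the midpoint of the tissues (-1.18, adjusted p = 0.0471) and without the low-count filter (-1.20, adjusted p = 0.0471). It did not pass in any fit that leaves out 1 library, with an adjusted p of 0.426 without cortex control 1 h and 0.408 without hippocampus control 1 h. Tac2 averaged 1.79 ± 0.752 CPM in hippocampus and 4.3 ± 1.3 CPM in cortex (SD, n = 3 each), a log2 change of -1.22 (adjusted p = 0.314). Vip averaged 4.18 ± 2.82 CPM in hippocampus and 6.87 ± 0.13 CPM in cortex (SD, n = 3 each), a log2 change of -0.87 (adjusted p = 0.482).

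Sst, the inhibitory peptide of dendrite-targeting interneurons, went the other way. It had 399, 282 and 342 CPM in the hippocampus libraries (conditioned 6 h, control 6 h, control 1 h) and 260, 184 and 211 CPM in the cortex libraries. Hippocampus was higher by 1.53, 1.53 and 1.62 times in the matched combinations. The log2 change of 0.68 (SE 0.31) had an adjusted p of 0.332 and passed once base composition and length were corrected for (1.06, adjusted p = 0.0248). Cck had a log2 change of 0.01 (SE 0.32, adjusted p = 0.996), whose sign turned under several settings. Cort had 22 counts in hippocampus and 13 in cortex and was below the filter.

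Ratios of counts within a library do not depend on scaling, but none given here was corrected for base composition or length. Sst had 44.7, 49.3 and 12.4 counts per count of Npy in the hippocampus libraries (conditioned 6 h, control 6 h, control 1 h), against 13.2, 10.1 and 3.91 in cortex. Each hippocampus value lay above the cortex value of the same training and time, with no overlap of counting intervals. Per count of Cck, Sst had 0.773, 0.817 and 0.585 counts in hippocampus and 0.524, 0.567 and 0.308 in cortex. Per count of Gad1, the GABA-synthesising enzyme of interneurons in general, it had 3.81, 3.01 and 3.18 counts in hippocampus and 3.0, 1.99 and 1.51 in cortex. The summed level of 18 interneuron markers lay between 753 and 859 CPM in the hippocampus libraries and between 857 and 935 CPM in the cortex libraries, with no marker at 0 in any library.

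**Figure D2:**
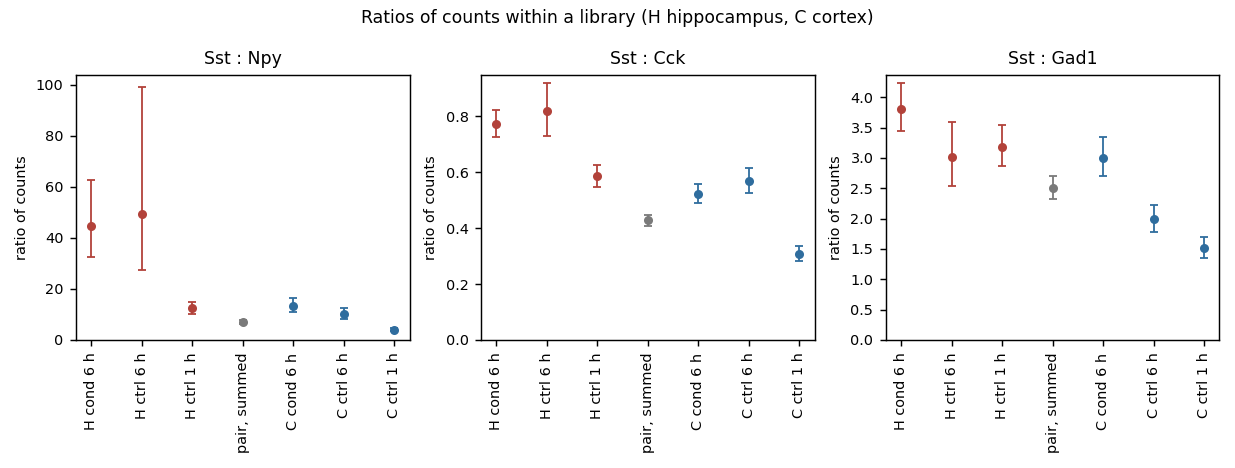
Ratios of counts within each library for Sst against Npy, Cck and Gad1 (linear axes from 0, 95% exact intervals that cover counting error only), red for hippocampus (H), grey for the summed conditioned 1 h pair and blue for cortex (C). The ratio of Sst to Npy is 44.7 and 49.3 in the hippocampus 6 h libraries and at most 13.2 elsewhere.

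Of the markers of striatal projection neurons, which make dynorphin and tachykinins, 11 of 12 tested had a negative log2 change, hippocampus over cortex. Their sum over 13 genes was 403, 417 and 311 CPM in the hippocampus libraries (conditioned 6 h, control 6 h, control 1 h) and 520, 852 and 696 CPM in the cortex libraries. Of the 12, 7 passed as lower in hippocampus. The most abundant, which weigh most in the sum, did not pass: Foxp1 (-0.33), Pde10a (-0.66) and Bcl11b (0.38). Among the 7 that passed, Ppp1r1b (DARPP-32) had 27.5, 2.08 and 44.0 CPM in hippocampus and 78.6, 150 and 243 CPM in cortex. At 0 were 2, 3 and 1 of the list's genes in the hippocampus libraries, against none in the cortex libraries. Pdyn in cortex was lower in the conditioned 6 h library than in both control libraries. The part of striatal tissue in the results for Pdyn, Tac2 and Adcyap1 was not tested. In polyribosome-associated RNA of bulk tissue, fewer cells of a type, less RNA per cell and less of it on ribosomes cannot be told apart.

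In the pair labelled as conditioned 1 h libraries of both tissues, 6 of the 9 members lay between the 1 h controls of hippocampus and cortex. The share of all genes that did so was not counted. The summed markers of hippocampal principal neurons stood at 708 and 719 CPM in the libraries labelled hippocampus and cortex. They stood at 982 CPM in hippocampus control 1 h and 429 CPM in cortex control 1 h. Sst stood at 317 and 314 CPM in the libraries labelled hippocampus and cortex, between 342 CPM in hippocampus control 1 h and 211 CPM in cortex control 1 h. Adcyap1 stood at 4.28 and 5.24 CPM, between 1.39 and 12.6 CPM. Cck, Vip and Cort were higher in the pair than in either 1 h control, with Vip at 12.6 and 9.05 CPM, against 3.47 CPM in hippocampus control and 6.84 CPM in cortex control. For all 9 members the interval of the ratio within the pair included 1.

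Among 12 tested genes for the peptides' receptors and the binding protein of CRH, 1 was higher and 1 lower in hippocampus, while 3.61% of all genes passed. Npy2r, the presynaptic Y2 receptor of neuropeptide Y, had 40.9, 65.1 and 24.5 CPM in the hippocampus libraries (conditioned 6 h, control 6 h, control 1 h) and 2.63, 2.08 and 0.273 CPM in the cortex libraries. Its log2 change was 4.77 (SE 0.47, adjusted p = 1.816e-06), opposite in sign to that of Npy itself. Cckbr, the main cholecystokinin receptor of the brain, had 7.82, 3.64 and 6.02 CPM in hippocampus and 42.4, 29.7 and 54.4 CPM in cortex. Its log2 change was -2.83 (SE 0.39, adjusted p = 8.854e-05), while its ligand Cck was at 0.01. The receptors' median log2 change was -0.29, beside 0.00 over all genes.

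A list of other precursors, which holds the growth factor gene Igf1 beside neuropeptide genes, had 9 genes tested. Of these, Grp (gastrin-releasing peptide) was higher in hippocampus (log2 change 1.58, adjusted p = 0.0481), and Penk (enkephalins, -2.34, adjusted p = 0.000333) and Tac1 (substance P, -2.34, adjusted p = 0.0144) were lower. Penk and Tac1 also belong to the striatal markers. Of 22 genes of precursor processing and dense-core vesicles, 0 passed in edgeR and 4 had an unadjusted p under 0.05. The most abundant of them were the granin Chgb (log2 change 0.80, SE 0.32, adjusted p = 0.244) and Cpe, the carboxypeptidase that trims cut precursors (1.12, SE 0.33, adjusted p = 0.0603). Of 7 tested peptidases that break down such peptides, 0 passed and 0 had an unadjusted p under 0.05.

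**Figure D3:**
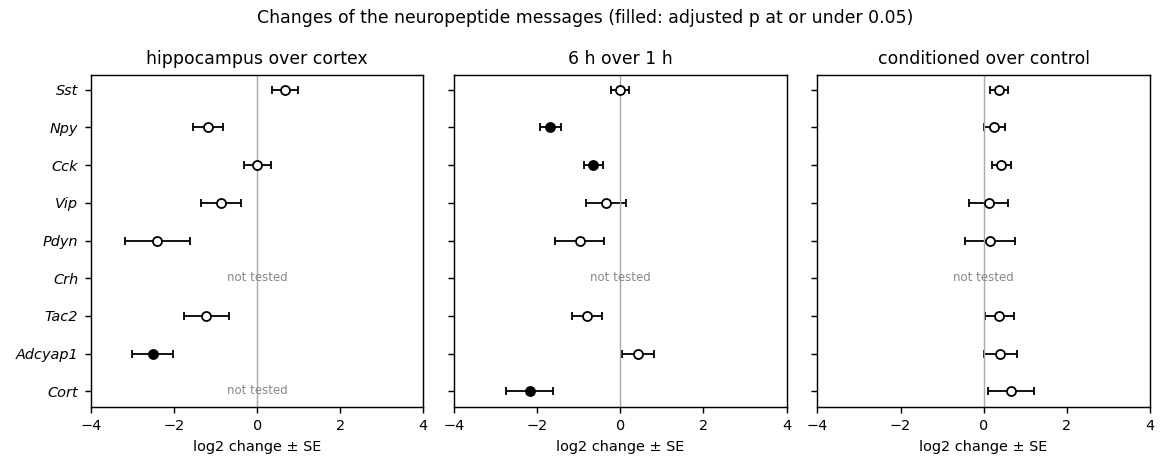
Log2 change with its standard error from edgeR for each member in the comparison of hippocampus with cortex (6 libraries), 6 h with 1 h and conditioned with control (7 libraries, the pair summed). Filled points passed at an adjusted p of 0.05, which are Adcyap1 in the first panel, Npy, Cck and Cort in the second and none in the third.

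The comparison of times set 6 h against 1 h after the session. Of 8 members tested, 3 passed, all lower at 6 h: Npy, Cort and Cck. This stood beside 37.7% of all 16378 rows tested, 17.1% lower and 20.5% higher, so that the share of members that passed was close to that of all rows. Sst differed by less than its standard error. Correction for base composition and length changed these calls, and corrected values are given below for each member tested.

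Npy had 8.94, 5.72, 19.7 and 18.2 CPM in the 6 h libraries (hippocampus conditioned, hippocampus control, cortex conditioned, cortex control) and 27.5, 53.9 and 45.0 CPM in the 1 h libraries (hippocampus control, cortex control, summed pair). Every 6 h library was below every 1 h library, with means of 13.1 ± 6.86 CPM at 6 h (SD, n = 4) and 42.1 ± 13.4 CPM at 1 h (SD, n = 3). The log2 change was -1.69 (SE 0.25, edgeR adjusted p = 0.00639). Among controls of the same tissue, Npy at 6 h was 0.208 times its 1 h level in hippocampus (0.101 to 0.386) and 0.338 times in cortex (0.262 to 0.433). With correction for base composition and length the change was -0.76 (adjusted p = 0.0595), and without cortex control 1 h it was -1.76 (adjusted p = 0.0711). Per count of Gad1 it had 0.0853 and 0.0611 counts in the hippocampus 6 h libraries and 0.227 and 0.196 in the cortex 6 h libraries, against 0.256 in hippocampus control 1 h and 0.387 in cortex control 1 h.

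Cck stood at 517, 345, 497 and 325 CPM in the 6 h libraries in the same order and at 584, 683 and 738 CPM in the 1 h libraries. Again the groups did not overlap, with a log2 change of -0.65 (SE 0.23, adjusted p = 0.0492). With correction it turned to 0.86 (adjusted p = 0.0888). The call was also lost in 5 of the 8 fits that leave out 1 library, with an adjusted p of up to 0.253 (without cortex control 6 h), and without the low-count filter (0.0532). Cort had 7, 0, 2 and 3 counts at 6 h, and 15, 8 and 33 counts at 1 h, the last in the summed pair. Its log2 change was -2.18 (SE 0.56, adjusted p = 0.0162), and -0.94 with correction (adjusted p = 0.27). Its adjusted p was 0.0798 without cortex control 1 h, 0.0584 without hippocampus control 1 h and 0.0598 without cortex conditioned 6 h.

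Sst stood at 399, 282, 260 and 184 CPM at 6 h and at 342, 211 and 316 CPM at 1 h. The groups overlapped, the log2 change was -0.01 (SE 0.22, adjusted p = 0.982), and with correction it became 1.27 (adjusted p = 0.0158). Adcyap1 had a log2 change of 0.42 (adjusted p = 0.403), and -0.43 with correction. Tac2 (-0.81, adjusted p = 0.0922), Pdyn (-0.98, adjusted p = 0.202) and Vip (-0.34, adjusted p = 0.58) did not pass. With correction Tac2 was at -0.18 (adjusted p = 0.767), Pdyn at -0.81 (adjusted p = 0.364) and Vip at -1.17 (adjusted p = 0.0945). Crh had 8 counts at each time and was below the filter. Vip had 7.29 and 7.01 CPM in the control 6 h libraries of hippocampus and cortex, against 3.47 and 6.84 CPM in the 1 h controls. In the conditioned 6 h libraries it had 1.79 and 6.75 CPM, against 10.8 CPM in the summed pair.

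Base composition went with the change between the 1 h and 6 h libraries across the whole table. Whether time or library preparation lay behind this was not tested. Over 11951 genes the Spearman correlation of transcript GC content with the log2 change was -0.774, a description across genes that share the libraries. Among genes of GC content within 2 percentage points and length within a factor of 1.5, the median change was -1.3 around Sst (56.0% GC, 721 bases), -1.40 around Cck (58.0% GC), -1.38 around Cort (58.5% GC) and -1.28 around Npy (53.7% GC). Vip (42.2% GC) and Adcyap1 (42.8% GC) lay among genes with medians of 0.80 and 0.87. The changes of Sst and Cck were above the interquartile range of such genes. Those of Vip, Adcyap1, Pdyn and Cort were below theirs, and those of Npy and Tac2 within.

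**Figure D4:**
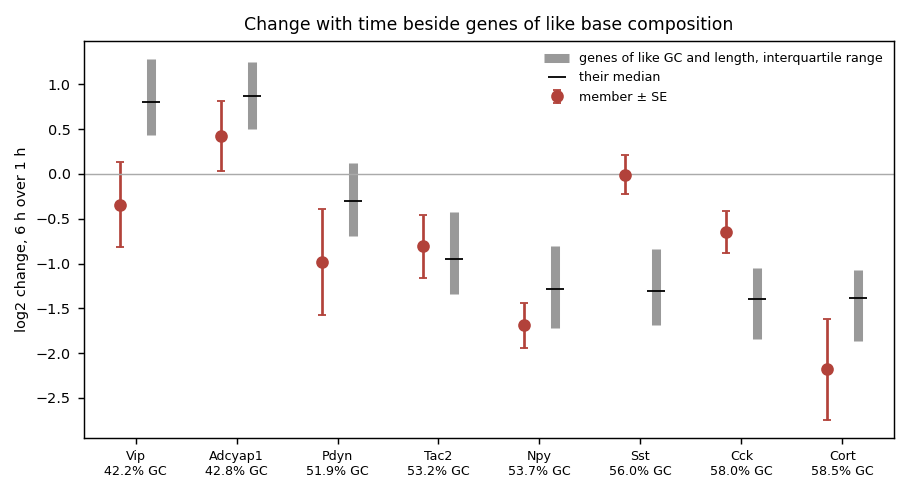
Log2 change of 6 h over 1 h for the 8 tested members (red, with standard error), ordered by GC content of the transcript, beside the interquartile range (grey bar) and median (black line) of genes of like GC content and length. Sst at -0.01 and Cck at -0.65 stand above their grey bars, whose medians are -1.3 and -1.40.

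Of 13 tested receptors, 2 were lower at 6 h and none higher, beside 37.9% of all genes called in either direction. The somatostatin receptors Sstr4 (-1.49, adjusted p = 0.00748) and Sstr2 (-1.24, adjusted p = 0.0325) were those called. Sstr4 had 24.8, 12, 9.19 and 6.63 CPM at 6 h (hippocampus conditioned, hippocampus control, cortex conditioned, cortex control), against 42.1, 26.3 and 36.3 CPM at 1 h. The median of the receptors was -0.55, against -0.06 over all genes.

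Of 22 processing and vesicle genes, 3 rose and 5 fell, a share close to the 37.9% of all genes called. Those of smallest adjusted p were Pcsk1n, the inhibitor of the proprotein convertase (-1.23, adjusted p = 0.00711), the granin Vgf (-1.45, adjusted p = 0.0103), the granin Chgb (0.89, adjusted p = 0.0173) and the granule membrane protein Ptprn (-0.93, adjusted p = 0.0218). Chgb stood at 1132, 1102, 802 and 571 CPM at 6 h and at 639, 359 and 542 CPM at 1 h, while Pcsk1n stood at 67.9, 39.0, 45.2 and 28.2 CPM at 6 h and at 111, 83.1 and 118 CPM at 1 h. Beside the same 37.9%, 3 of 7 peptidases and 3 of 9 other precursors passed. Of the peptidases, Mme (neprilysin, 1.58, adjusted p = 0.013) and Nln (neurolysin, 0.74, adjusted p = 0.0458) rose and Thop1 (thimet oligopeptidase, -1.26, adjusted p = 0.0117) fell. Of the other precursors, Nucb2 (1.69, adjusted p = 0.0104) and Igf1 (a growth factor, 1.57, adjusted p = 0.0151) rose, and Apln (apelin, -1.21, adjusted p = 0.0166) fell. These values were not corrected for base composition.

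The comparison of training asked whether conditioning changed the messages. Of the 8 members tested, 0 passed and 0 had an unadjusted p under 0.05, beside 0% of 16378 rows called by edgeR (296 at an unadjusted p under 0.05), 0 by DESeq2 (267) and 0 by limma-voom (333). All 8 had a positive log2 change, from 0.13 for Vip to 0.66 for Cort (SE 0.55), with adjusted p-values of 0.943 to 0.975. The share of all genes with a positive change was not counted, here or for the receptors below. All these values come from the same 7 libraries, so their signs are not independent. Sst changed by 0.38 (SE 0.22) and Cck by 0.43 (SE 0.23), and with correction for base composition they changed by 0.08 and 0.02. Vip and Pdyn turned to -0.85 and -0.38 without the pair.

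Sst averaged 325 ± 70.1 CPM in conditioned libraries (SD, n = 3) and 255 ± 71.3 CPM in control libraries (SD, n = 4), and Cck averaged 584 ± 133 CPM and 484 ± 177 CPM in the same groups. The ranges overlapped for every member. Of 13 receptors tested 0 passed and 1 had an unadjusted p under 0.05, while all 13 had a positive change, with a median of 0.41 against 0.01 over all genes. The most abundant were Adcyap1r1, the PACAP receptor (0.34, SE 0.26), and Cckbr (0.78, SE 0.27, unadjusted p = 0.0155, edgeR adjusted p = 0.943). Of the 22 processing genes, 7 peptidases and 9 other precursors, 0 passed, and 2, 0 and 1 of them had an unadjusted p under 0.05. The values of these lists and of the receptors were not corrected for base composition.

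At 6 h each tissue had 1 conditioned and 1 control library outside the pair, which allows a ratio with a counting interval but no test of the conditions. Sst was 1.42 times as high in conditioned as in control hippocampus (1.29 to 1.56) and 1.41 times in cortex (1.3 to 1.53). Cck was 1.5 times as high in hippocampus (1.37 to 1.64) and 1.53 times in cortex (1.44 to 1.63). Both intervals excluded 1 in both tissues.

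Genes of like GC content and length differed between those tissues. In hippocampus their median ratio was 2.34 around Sst (203 genes) and 2.63 around Cck (142 genes), with lower quartiles of 1.48 and 1.54, and both members lay below those. In cortex the medians were 1.07 and 1.01, with upper quartiles of 1.35 and 1.24, and both members lay above them. With total counts in place of TMM scaling, the hippocampus ratios were 1.79 for Sst and 1.89 for Cck. Within the library, Sst per count of Gad1 was 3.81 in conditioned and 3.01 in control hippocampus, and 3.0 in conditioned and 1.99 in control cortex. Per count of Gad2, the other GABA-synthesising enzyme, it was 1.89 and 1.23 in hippocampus, and 0.724 and 0.531 in cortex. Cck per count of Slc17a7 was higher in conditioned than in control cortex (1.47 and 0.823) and lower in conditioned than in control hippocampus (0.972 and 1.57).

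Among scarcer members, Adcyap1 had 20 counts in conditioned and 2 in control hippocampus, a ratio of 4.29 (1.04 to 37.9), and 75 and 67 counts in cortex, a ratio of 1.11 (0.787 to 1.56). Vip had 8 counts in conditioned and 14 in control hippocampus, a ratio of 0.245 (0.0892 to 0.627), and 36 and 37 counts in cortex (0.964). Pdyn had 8 counts in conditioned and 21 in control cortex, a ratio of 0.377 (0.145 to 0.887). The striatal markers summed to 520 CPM in that conditioned library and to 852 CPM in its control. Any link of this sum to Pdyn was not tested. In hippocampus Pdyn had 5 counts in conditioned and 0 in control. Npy was at 1.56 in hippocampus (0.786 to 3.37) and 1.08 in cortex (0.813 to 1.44), and Tac2 at 1.72 and 1.22, with intervals that included 1. Whether these ratios differ between the tissues was not tested.

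**Figure D5:**
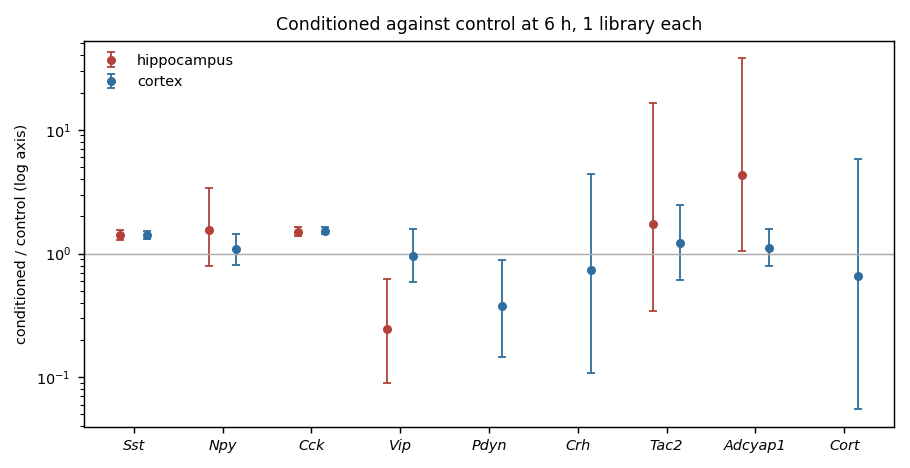
Ratio of conditioned to control at 6 h (log axis) for each member, 1 library each, with 95% exact intervals that cover counting error only, red for hippocampus and blue for cortex. Members without counts in the hippocampus control library have no red point. Sst and Cck stand between 1.41 and 1.53 in both tissues.

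The members did not follow 1 common pattern. Over the 7 libraries, whose values share tissue, time and depth, Pearson's r of log2 CPM was 0.94 between Pdyn and Crh, 0.94 between Crh and Adcyap1, 0.93 between Npy and Tac2 and 0.85 between Cck and Cort. Sst had r of 0.35 or less with every other member, and -0.69 with Crh. Among about 9823 genes compared, the patterns most like that of Sst were those of Chrna7 (r = 0.97), Sort1 (0.96) and Frmd4b (0.96). Those most like Npy were Fahd2a, Atp5a1 and Stk11ip (each 0.99), and those most like Cck were Spata2l (0.99), Slc7a4 (0.98) and Adcy3 (0.98). Gcnt2 (0.96) was nearest to Vip, Dact2 (0.99) to Pdyn, Hsd17b4 (0.99) to Crh, Igsf21 (0.99) to Tac2, Tbc1d24 (0.98) to Adcyap1 and Lgi3 (0.99) to Cort. These genes were picked as the highest of about 9823 correlations over 7 libraries. A high r is then likely by selection alone, and shared regulation was not tested. Crh had 16 counts in all, and Crh, Pdyn and Cort each had a library at 0. Their r values, also those with other members, are open to counting noise.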

How the data were processed

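The labels' protocols describe polyribosome-associated RNA, depletion of ribosomal RNA, priming with random hexamers together with poly A primers, isothermal (SPIA) amplification and PCR. The table the authors deposited holds whole-number read counts, 1 row per RefSeq transcript (28157 rows), with no normalization. Tools named in the submitters' processing notes are TopHat 1.3.1, CASAVA 1.7, limma 3.12.3 and edgeR 2.612, with build mm9. The sources used here do not name the counting program or its use of strand.

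Identifiers were matched to symbols (98.1%), length and GC content through RefSeq and GENCODE tables of GRCm38. The 594 rows without a symbol held 1.19% to 1.99% of counts. The members, the gene lists and the tests were chosen with earlier results of these data known. Tests were edgeR 4.0.16 quasi-likelihood fits (robust, TMM factors, default low-count filter) in R 4.3.3 on all rows, with Benjamini-Hochberg adjustment at 0.05. The tissue fit held 6 libraries (training and time as covariates, 2 residual degrees of freedom). The time and training fits held 7 libraries, with the pair summed at tissue value 0.5 (3 residual degrees of freedom). Fits were tested on simulated counts. Alternatives were other scaling factors, no filter, DESeq2 1.42.0, limma-voom 3.58.1, rows summed per gene, offsets for GC content and length, all 8 libraries, the pair left out and each library left out. Ratios of counts carry exact 95% intervals, and a count of 0 a limit of 3 counts. PCR reads without molecular identifiers are not separate molecules, so these cover counting error only.

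Named genes were all members, at most the 4 called genes of smallest adjusted p per list and comparison (the 2 most abundant where none was called), and the 3 genes of highest correlation per member among those of at least 5 CPM. Log2 CPM for correlations and neighbours used a prior of 0.5 CPM. Values of other genes printed as markers were added after their values were seen, as were the comparisons with genes of like GC content and length.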

Additional observations from a re-analysis of the deposited data

Results flagged for a closer look

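In 18 checks of groups of 4 libraries, 2 were flagged, both for Vip on the log2 CPM scale. Chance flags about 1 in 20 among replicates. Each group here mixed tissues and also training or times, so that rate is only a rough guide. Among the 6 h libraries, hippocampus conditioned stood below the others at 1.79 CPM (8 counts), against 7.29 CPM in hippocampus control, 6.75 CPM in cortex conditioned and 7.01 CPM in cortex control, and its gap to the nearest was 0.942 of the range. Among the control libraries, hippocampus 1 h stood below the others at 3.47 CPM (15 counts), against 7.29 CPM in hippocampus 6 h, 7.01 CPM in cortex 6 h and 6.84 CPM in cortex 1 h, and its gap was 0.912 of the range. The cause was not tested.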

How the results depend on the processing

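No paired analysis was possible because the labels give no replicate numbers to pair by. The tissue fit, with training and time as covariates, already compares the libraries of each combination of training and time. Depth limits Crh, Cort and Pdyn, which had 0 counts in a library, and 2 or 3 residual degrees of freedom limit every test. Values are log2 changes or counts of calls, and causes were not tested. An alternative without the pair and hippocampus control 6 h, and one that joins GC and length offsets with leaving out the pair, were added after seeing the data. Upper-quartile factors moved the median time change of all rows to -0.15, against -0.03 with TMM.

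Hippocampus over cortex called 600 rows and 1 member. It called 921 rows and 3 members without the low-count filter (Npy and Pdyn beside Adcyap1), 346 rows with rows summed per gene, 969 rows and 2 members with GC and length offsets (Sst beside Adcyap1), and 2 members with the pair at the tissue midpoint. With all 8 libraries separate it called 0 rows (1588 at an unadjusted p under 0.05) and 0 members (Adcyap1 -1.90, adjusted p = 0.248). Leaving out 1 library gave 200 to 874 rows and 0 to 2 members. Cck turned to -0.015 with upper-quartile factors and -0.012 without the filter, and ranged from -0.11 to 0.14 with 1 library left out.

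Time called 6167 rows and 3 members. GC and length offsets gave 1602 rows and 1 member (Sst 1.27, Cck 0.86, Adcyap1 -0.43), and 672 rows and 1 member with the pair also left out (1.45, 1.05 and -0.78 for the same genes). Without the pair there were 3749 rows and 1 member, Npy (Vip 0.62), and without the pair and hippocampus control 6 h 1128 rows and 1 member. Leaving out 1 library gave 0 to 7327 rows and 0 to 3 members, with 0 rows without cortex control 1 h, 1830 without hippocampus control 1 h and 2540 without cortex conditioned 6 h. Sst was 0.015 with rows summed per gene and 0.033 with all 8 libraries, and with 1 library left out ranged from -0.031 to 0.049, and Vip from -0.85 to 0.077. Npy lost its call without cortex control 1 h (-1.76, adjusted p = 0.0711) and passed in the other fits that leave out 1 library. Cck and Cort lost theirs without either 1 h control or without cortex conditioned 6 h, and Cck also without hippocampus conditioned 1 h or cortex control 6 h, without the low-count filter (adjusted p = 0.0532) and with rows summed per gene (adjusted p = 0.0592), the last 2 leaving 2 members called.

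Training called 0 rows under every alternative run, with 93 to 677 at an unadjusted p under 0.05. Vip turned to -0.017 with DESeq2, -0.85 without the pair, -0.21 without the pair and hippocampus control 6 h, and -0.63 with offsets and no pair. Pdyn was -0.0032 with all 8 libraries, and -0.38, -0.80 and -0.48 in the 3 fits without the pair, in the same order. With offsets and no pair, Sst was -0.11 and Cck -0.17. With 1 library left out Vip ranged from -0.15 to 0.58 and Pdyn from -0.36 to 1.34.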
